A study of Mus musculus with 6 samples.

Results

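The 9 genes described here mark red blood cells of the early mouse embryo: 5 globin genes (Hba-x, Hbb-y, Hbb-bh1, Hba-a1 and Hba-a2) and 4 other red cell genes (Klf1, Hemgn, Epb42 and Slc4a1). They were chosen by name, and all 9 were found among the 37310 gene identifiers of the count files. Tailbuds at embryonic day 9.5 from mice on the outbred CD-1 background were profiled by polyadenylated RNA sequencing, 3 libraries from Sd/Sd embryos, homozygous for Danforth's short tail, and 3 from WT/WT embryos. Danforth's short tail is a mutation that shortens the tail and vertebral column. Tailbuds were cut just in front of the last somite, some libraries hold tailbuds of 2 embryos without a record here of which ones, and no step to remove blood is described in the labels. The libraries hold 41788978 to 62296689 counts, and the labels do not say whether replicates are separate litters. The p-values therefore speak only of the spread among the 6 libraries, which may be technical.

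The first red cells of the embryo, the primitive erythroid cells, arise in the blood islands of the yolk sac and mature in the bloodstream while they still have a nucleus. Hemoglobin joins alpha-like and beta-like globin chains, and primitive cells use embryonic chains: Hba-x encodes the zeta-like alpha chain, Hbb-y and Hbb-bh1 encode the embryonic beta-like chains, and Hba-a1 and Hba-a2 encode the alpha chain that persists into adult life. In the mouse, Hbb-bh1 leads in the youngest primitive cells and Hbb-y in more mature ones. Klf1 is an erythroid transcription factor that acts through CACCC motifs of globin and other promoters, Hemgn is a nuclear protein of blood-forming cells, Epb42 encodes protein 4.2 of the membrane skeleton, and Slc4a1 encodes band 3, the anion exchanger of the red cell membrane. In a tailbud these cells would be in its vessels or left on the tissue, and with bulk RNA fewer red cells and less RNA per red cell cannot be told apart.

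Upstream sequence of the globin genes is shown because their levels moved together across the libraries, and whether this sequence played a part was not tested. That of Hba-a1 and Hba-a2 is also shown because the counts of these copies cannot be separated with confidence. RefSeq promoters (GRCm38.p6) matched 7 of the 9 genes, all but Hbb-bh1 and Slc4a1. The 150 bases before the start of transcription are given 5′ to 3′ on the strand of the gene for Hba-x (chr11:32276450-32276599, plus strand), Hba-a1 (chr11:32283522-32283671, plus strand), Hba-a2 (chr11:32296342-32296491, plus strand) and Hbb-y (chr7:103853208-103853357, minus strand). Capitals mark CACCC (the motif of Klf1), the CCAAT box, GATAA (a motif of GATA factors) and the TATAA box on either strand, and no matches overlap in these windows.
Hba-x: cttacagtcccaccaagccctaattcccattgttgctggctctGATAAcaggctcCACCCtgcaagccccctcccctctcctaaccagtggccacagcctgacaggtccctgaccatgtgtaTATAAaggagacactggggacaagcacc
Hba-a1: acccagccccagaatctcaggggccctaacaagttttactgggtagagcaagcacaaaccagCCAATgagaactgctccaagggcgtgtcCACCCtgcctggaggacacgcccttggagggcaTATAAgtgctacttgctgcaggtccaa
Hba-a2: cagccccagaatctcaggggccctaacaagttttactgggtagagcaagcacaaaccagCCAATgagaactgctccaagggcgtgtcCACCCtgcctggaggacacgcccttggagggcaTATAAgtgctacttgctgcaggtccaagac
Hbb-y: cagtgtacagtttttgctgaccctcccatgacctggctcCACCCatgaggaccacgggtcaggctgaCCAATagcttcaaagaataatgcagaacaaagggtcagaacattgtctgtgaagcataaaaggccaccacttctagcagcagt

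The motifs were chosen after the sequences were seen. CACCC lay in 5 of the 7 windows (Hba-x, Hba-a1, Hba-a2, Hbb-y and Klf1), against 37.4% of 32851 RefSeq promoter windows of the same length. CCAAT lay in 4 of the 7 and in 24.5% of all windows, GATAA in 3 and in 13.3%, and TATAA in 5 and in 14.2%. Hba-a1 and Hba-a2 hold the same motifs in nearly the same sequence, so they do not give separate matches in these counts. The TATAA match began 80 bases before the start site in Hemgn. In Epb42 it lay on the opposite strand, 125 bases before the start. In Hba-a1, Hba-x and Hba-a2 it began 27, 28 and 30 bases before the start. Whether any motif was more frequent here than in other promoters was not tested. In Hba-x the CACCC match began 95 bases before the start site and in Hbb-y 111 bases before it. The RefSeq promoters of Hba-a1 and Hba-a2, from 250 bases before the start to 50 after it, were equal at 297 of 297 bases when shifted by 3.

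Globin RNA was present in every library, and its amount differed more between libraries of the same genotype than between the genotypes. The 5 globin genes took 0.169%, 0.9999% and 0.275% of all counts in Sd/Sd replicates 1, 2 and 3, against 0.428%, 0.876% and 0.357% in WT replicates 1, 2 and 3. Sd/Sd replicate 2 and WT replicate 2 were the highest, Sd/Sd replicates 1 and 3 the lowest, and the groups overlapped. The mean share was 0.481% ± 0.452 in Sd/Sd and 0.553% ± 0.281 in WT (SD, n = 3 each), a difference of -0.0720 percentage points that is smaller than either SD. Exact binomial intervals of the shares (95%) were narrow, 0.168% to 0.171% at the lowest and 0.997% to 1.002% at the highest. They cover the sampling of reads only and not the spread between libraries. Because these reads carry no molecular identifiers, copied reads could make the intervals too narrow even for that. Among all genes ranked by counts, Hba-x stood at place 5 in Sd/Sd replicate 2 and at place 160 in Sd/Sd replicate 1, and between places 8 and 45 in WT.

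Levels of single genes are given in CPM, the counts scaled to a common library size with edgeR's TMM factors. Hba-x measured 642, 3664 and 949 CPM in Sd/Sd replicates 1 to 3, against 1472, 3015 and 1323 CPM in WT replicates 1 to 3. Hbb-y measured 520, 3158 and 817 CPM in Sd/Sd and 1395, 2825 and 1060 CPM in WT. Both genes were highest in the replicate 2 library of each genotype and lowest in Sd/Sd replicate 1. Hbb-bh1, the other embryonic beta-like gene, measured 481, 2698 and 887 CPM in Sd/Sd and 1159, 2545 and 1046 CPM in WT. Hba-a1 was lower at 71.7, 424 and 116 CPM in Sd/Sd and 184, 353 and 152 CPM in WT. For the 4 globin genes the order of the 6 libraries was the same: Sd/Sd replicate 2, WT replicate 2, WT replicate 1, WT replicate 3, Sd/Sd replicate 3 and Sd/Sd replicate 1, from high to low.

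**Figure D1:**
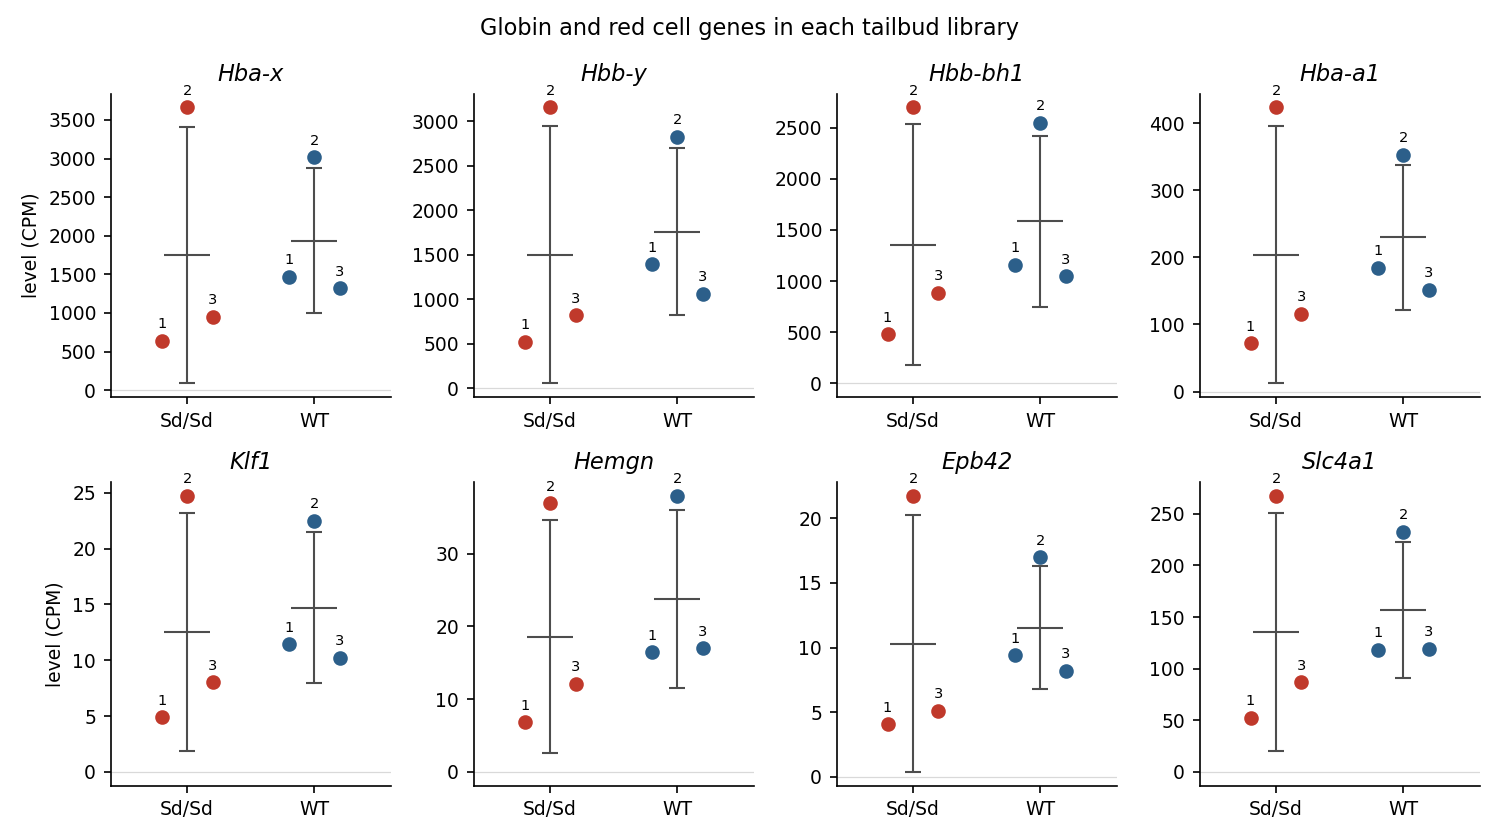
Levels in CPM of the 8 tested genes, 1 panel per gene with a linear axis; points are libraries labelled by replicate number (red Sd/Sd, blue WT), and bars give the mean and SD of 3 libraries. In all 8 panels Sd/Sd replicate 1 is the lowest point and the replicate 2 libraries are the highest of their group.

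The 4 other red cell genes varied across the libraries much as the globins did. Slc4a1, the band 3 gene, measured 52.6, 267 and 86.6 CPM in Sd/Sd replicates 1 to 3 and 118, 233 and 119 CPM in WT replicates 1 to 3. Hemgn measured 6.82, 36.9 and 12.1 CPM in Sd/Sd and 16.4, 38.0 and 17.0 CPM in WT. These membrane and nuclear protein genes again separated the replicate 2 libraries from the rest and not Sd/Sd from WT. Klf1 measured 4.88, 24.7 and 8.01 CPM in Sd/Sd and 11.4, 22.5 and 10.2 CPM in WT. Epb42 measured 4.07, 21.7 and 5.10 CPM in Sd/Sd and 9.40, 17.0 and 8.19 CPM in WT. Among the 8 genes, Sd/Sd replicate 2 was the highest library for 7 and WT replicate 2 for Hemgn. Sd/Sd replicate 1 was the lowest for 8 of 8.

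The spread within the mutant group was wider than within wild type for each of the 8 genes. From the lowest to the highest library the levels differed 5.07-fold to 6.08-fold in Sd/Sd and 1.96-fold to 2.67-fold in WT. The SD was 85.1% to 96.5% of the mean in Sd/Sd and 41.3% to 53.3% in WT. With 3 libraries a group, this difference in spread was not tested. It was also not particular to these genes. Summed markers of endothelium, described below, had an SD of 130 CPM in Sd/Sd and 41.7 CPM in WT. Those of tailbud progenitors had 284 CPM in Sd/Sd and 126 CPM in WT. Among the marker lists only megakaryocytes and platelets went the other way, with 3.96 CPM in Sd/Sd and 7.84 CPM in WT.

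None of the 8 tested genes was called as differing between Sd/Sd and WT. In edgeR's quasi-likelihood test across 15471 genes, 0 of 8 passed the adjusted p threshold of 0.05 (Benjamini-Hochberg), against 9 of all genes tested (0.0582%), 6 of them higher in Sd/Sd (0.0388%) and 3 lower (0.0194%). At an unadjusted p under 0.05 there were 0 of 8, against 2.9% of all genes. DESeq2, limma-voom and edgeR with the replicate number as a block also called 0 of 8, against 0.22%, 0.0194% and 0.0776% of all genes. The log2 fold changes ran from -0.35 for Hemgn to -0.14 for Hba-x, with standard errors of 0.72 to 0.87 and edgeR adjusted p = 0.9998 for each. With the replicate number as a block they ran from -0.58 to -0.46 (lowest unadjusted p = 0.0684, for Hemgn) and with limma-voom from -0.53 to -0.38, more than 1.5 times larger for most of the genes. For the edgeR estimates without a block, 95% intervals from a normal quantile of the standard error reached from -1.94 to 1.495 at the extremes. These intervals are too narrow, because the quasi-likelihood test allows for the small number of libraries and the normal quantile does not. Changes well beyond the size of the standard errors could therefore have gone undetected at this replication. The groups overlapped for all 8 genes, while 7.68% of all genes had groups that did not overlap.

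All 8 log2 fold changes were negative, with a median of -0.22, against 50.1% negative and a median of -0.000337 among all genes tested. Since the 8 genes rank the libraries almost alike, they do not give 8 separate readings. The sign rested on single libraries. Without Sd/Sd replicate 1 all 8 log2 fold changes were positive (0.05 to 0.25), and without WT replicate 2 they were also positive (0.16 to 0.32). Without Sd/Sd replicate 3 they lay between -0.12 and 0.17, 1 of 8 negative. Without Sd/Sd replicate 2 they lay between -1.40 and -1.17 and 0 of 8 passed (lowest edgeR adjusted p = 0.803).

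**Figure D2:**
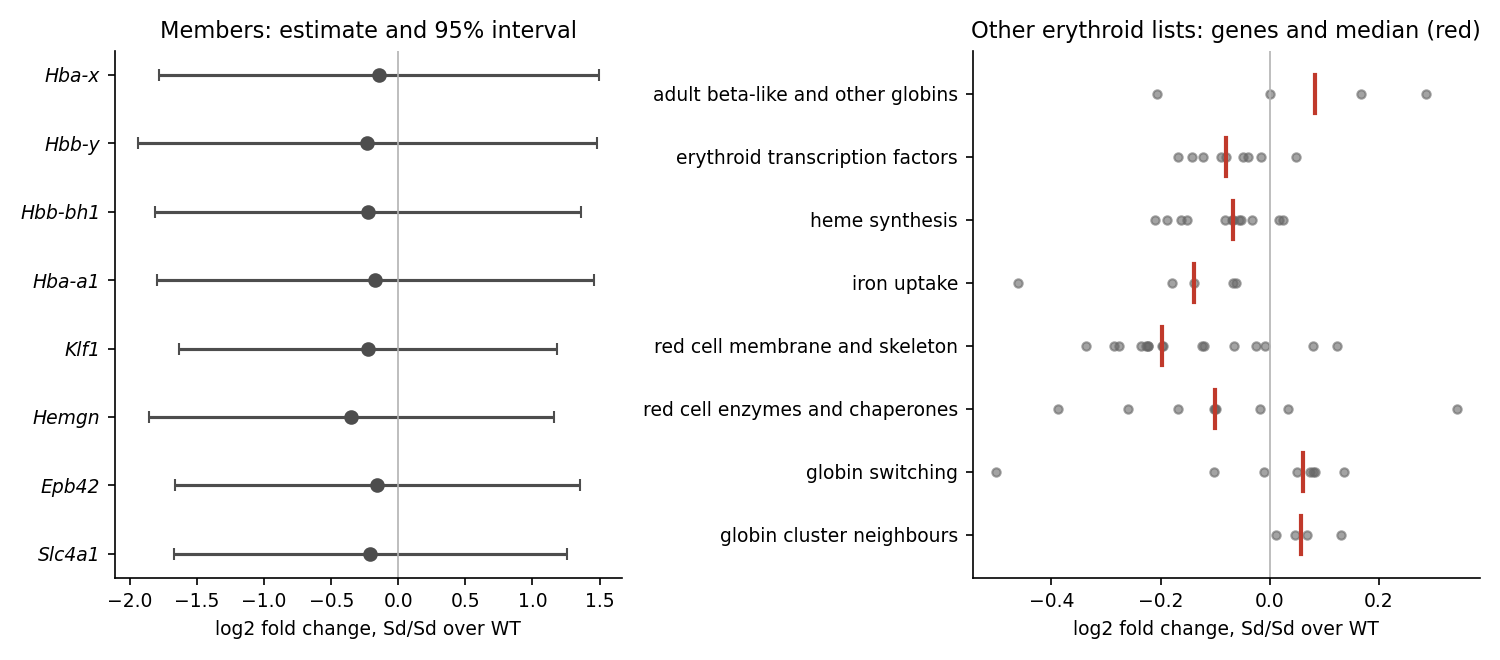
Left, log2 fold change of Sd/Sd over WT for the 8 tested genes, with 95% intervals from a normal quantile of the standard error. These intervals are too narrow for so few libraries. Right, log2 fold changes of 67 other erythroid genes by list, with the median of each list as a red bar. The 8 estimates lie between -0.35 and -0.14 and each interval spans 0.

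Hba-a2 had too few counts to pass the filter on low values. Without that filter its log2 fold change was -1.18 with an edgeR adjusted p of 0.9997, from the few counts that follow. It had 0, 0 and 2 counts in Sd/Sd replicates 1 to 3 and 1, 3 and 1 counts in WT replicates 1 to 3, against 2958, 26546 and 5696 counts of Hba-a1 in Sd/Sd and 9727, 18685 and 6410 counts in WT. In GENCODE M21 the coding sequences of the copies are 429 bases each and equal at 428 of them. The difference is C381T, with the Hba-a1 base before the position and the Hba-a2 base after it, counted from the A of the start codon. It is shown in capitals within coding bases 366 to 395, since it is the only coding base at which a read could tell the copies apart.
Hba-a1: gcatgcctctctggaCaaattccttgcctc
Hba-a2: gcatgcctctctggaTaaattccttgcctc

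Of the windows of 50 bases in the annotated Hba-a2 transcript, 86.9% also occur in that of Hba-a1, and 67.5% of the Hba-a1 windows occur in that of Hba-a2, so the annotated transcripts also differ outside the coding sequence. No source used here says how reads that match both genes were counted, so the values printed for Hba-a1 may hold reads of either copy. By contrast Hbb-y and Hbb-bh1 share 0 windows of 50 bases, with 76.4% of their 444 coding bases equal, and Hba-x and Hba-a1 also share 0.

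The makeup of the globin counts was far steadier than their amount. Hba-x made up 37.5%, 36.9% and 34.3% of the counts of the 5 globin genes in Sd/Sd replicates 1 to 3 and 35.0%, 34.5% and 37.0% in WT replicates 1 to 3. Hbb-y made up 30.3%, 31.8% and 29.5% in Sd/Sd and 33.1%, 32.3% and 29.6% in WT. Hbb-bh1 made up 28.1%, 27.1% and 32.0% in Sd/Sd and 27.5%, 29.1% and 29.2% in WT. No component separated the genotypes, although the share of globin in all counts differed 5.91-fold between the highest and the lowest library. Hba-a1 stayed between 4.18% and 4.26% in Sd/Sd libraries and between 4.05% and 4.38% in WT libraries.

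Hbb-y and Hbb-bh1 were nearly equal in every library, but their balance varied between libraries by far more than the exact binomial intervals span. Hbb-y took 51.9%, 53.9% and 48.0% of the counts of this pair in Sd/Sd replicates 1 to 3, against 54.6%, 52.6% and 50.3% in WT replicates 1 to 3. Sd/Sd replicate 3 was the only library in which Hbb-bh1 had more counts than Hbb-y, with an exact binomial interval for the Hbb-y share of 47.6% to 48.3%. The mean share was 51.3% ± 3.03 in Sd/Sd and 52.5% ± 2.14 in WT (SD, n = 3 each), a difference of -1.24 percentage points that is smaller than either SD. Per base of annotated exon the share was 51.1%, 53.1% and 47.2% in Sd/Sd and 53.8%, 51.8% and 49.5% in WT, so on that scale WT replicate 3 also fell below an equal split. The 2 libraries with the lowest Hbb-y share were thus the replicate 3 libraries of both genotypes.

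Among the alpha-like genes, Hba-x held about 9 in 10 counts throughout. Its share of the alpha-like counts was 90.0%, 89.6% and 89.1% in Sd/Sd replicates 1 to 3 and 88.9%, 89.5% and 89.7% in WT replicates 1 to 3. The mean was 89.6% ± 0.438 in Sd/Sd and 89.4% ± 0.439 in WT (SD, n = 3 each), a difference of 0.198 percentage points, within the SD of either group. The alpha-like genes together gave 38.4% to 41.6% of all alpha-like and beta-like counts in Sd/Sd and 38.5% to 41.1% in WT.

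**Figure D3:**
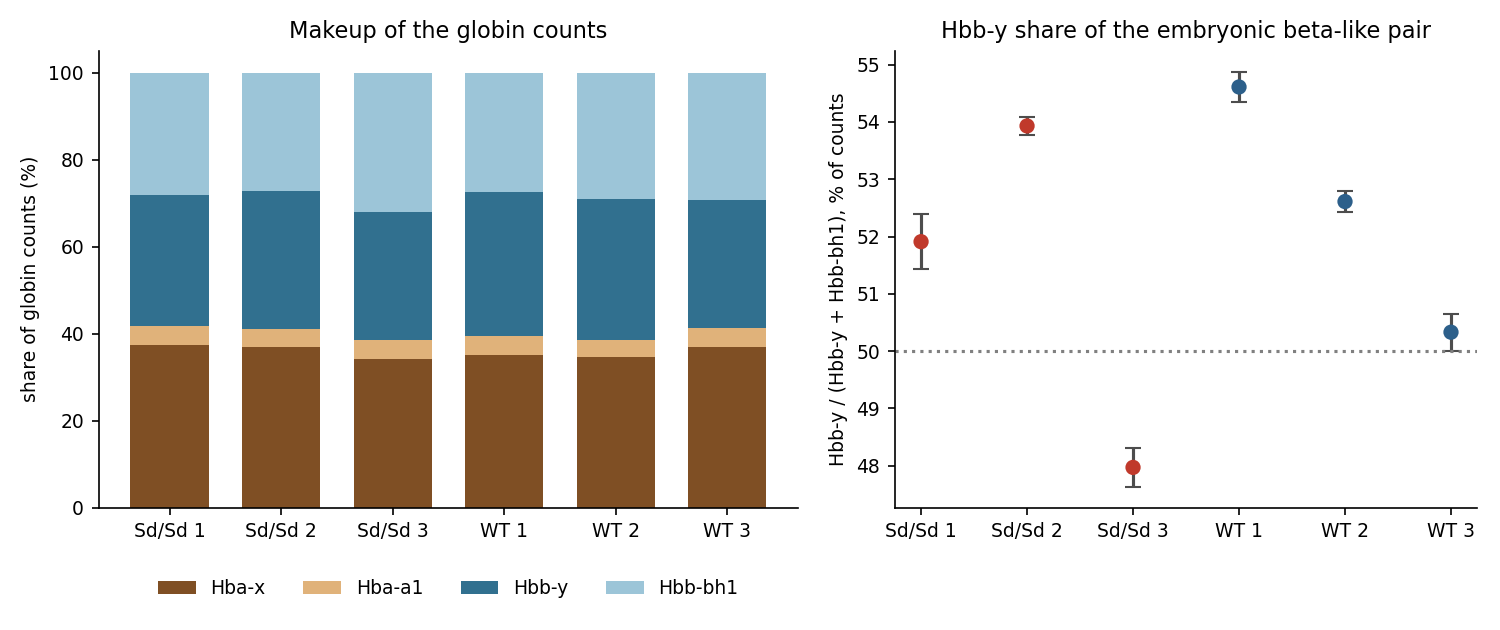
Left, share of Hba-x, Hba-a1, Hbb-y and Hbb-bh1 in the globin counts of each library (percent, stacked); right, Hbb-y as percent of the counts of Hbb-y and Hbb-bh1 with 95% exact binomial intervals, red Sd/Sd and blue WT, on an axis that does not start at 0. The stacks are alike in all 6 libraries, and the Hbb-y share runs from 48.0% in Sd/Sd replicate 3 to 54.6% in WT replicate 1.

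Per kilobase of annotated exon, Hbb-y and Hbb-bh1 had the highest levels, followed by Hba-x, Hba-a1, Slc4a1, Klf1 and Hemgn at a like level, and Epb42. On this scale of CPM per kb, Hbb-y averaged 2367 ± 2283 in Sd/Sd and 2780 ± 1481 in WT (SD, n = 3 each, as for the means that follow). Hbb-bh1 averaged 2211 ± 1925 in Sd/Sd libraries and 2583 ± 1361 in WT libraries. Hba-x averaged 1868 ± 1773 in Sd/Sd libraries and 2065 ± 999 in WT libraries. Within libraries, Hbb-y and Hbb-bh1 were each above Hba-x in 6 of 6 libraries, while Hbb-y was above Hbb-bh1 in 4 of 6. Hba-a1 averaged 251 ± 236 in Sd/Sd and 283 ± 133 in WT, and Slc4a1 27.7 ± 23.6 in Sd/Sd and 32.1 ± 13.4 in WT. Klf1 averaged 8.20 ± 6.98 in Sd/Sd and 9.62 ± 4.42 in WT. Hemgn averaged 7.41 ± 6.40 in Sd/Sd and 9.48 ± 4.88 in WT. Klf1 was above Hemgn in 4 of 6 libraries. Epb42, the lowest in 6 of 6, averaged 1.90 ± 1.83 in Sd/Sd and 2.13 ± 0.878 in WT. The exon lengths come from GENCODE M21, a later build than the mm9 of the counting, and join the exons of all transcripts of a gene.

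Globin and non-globin genes gave nearly the same reading of the blood in a library. The 4 non-globin genes summed to 68.3, 351 and 112 CPM in Sd/Sd replicates 1 to 3, against 156, 310 and 155 CPM in WT replicates 1 to 3. For each count of these genes there were 25.1, 28.3 and 24.8 globin counts in Sd/Sd and 27.04, 28.2 and 23.2 in WT, a 1.22-fold range over libraries whose globin share differed 5.91-fold. Slc4a1 had 12.9, 12.3 and 17.0 counts per count of Epb42 in Sd/Sd and 12.6, 13.7 and 14.6 in WT. Sd/Sd replicate 3, the highest of these, was also the library with the lowest share of Hbb-y. Klf1 had 0.663 to 0.715 counts per count of Hemgn in Sd/Sd and 0.592 to 0.694 in WT.

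Other erythroid genes were described by role from lists of 79 symbols, of which 74 have a row and 67 were tested. Of the 67, 0 passed over all genes tested (edgeR; 0 also with DESeq2 and limma-voom, and 0 at an unadjusted p under 0.05), 49 had a negative log2 fold change, against 50.1% of all genes tested, and the median was -0.07. This sign too rested on single libraries: without WT replicate 2 there were 14 of 67 negative (median 0.08), without Sd/Sd replicate 1 there were 22 of 67 (median 0.09) and without Sd/Sd replicate 3 there were 32 of 67 (median 0.01). The lowest was Bcl11a at -0.50 and the highest Trim58 at 0.34. Sd/Sd replicate 2 and WT replicate 2 were the 2 highest libraries for 47 of the 67 (70.2%), for 8 of the 8 tested members and for 1510 of all 15471 genes tested (9.76%). The levels of 23 of the 67 differed 3-fold or more between the lowest and the highest library.

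Red cell membrane and skeleton genes had 14 of 16 tested members with a negative log2 fold change, a median of -0.20 and 0 past the threshold; without WT replicate 2, 3 of 16 were negative, and without Sd/Sd replicate 1, 4 of 16. Sptb, which encodes beta spectrin, measured 27.9, 118 and 48.1 CPM in Sd/Sd replicates 1 to 3 and 54.6, 109 and 48.8 CPM in WT replicates 1 to 3. Epb41, the protein 4.1 gene, which many tissues express, measured 345 to 408 CPM in Sd/Sd and 345 to 361 CPM in WT. Cd24a, a surface protein gene of many embryonic cells, measured 444 to 497 CPM in Sd/Sd and 475 to 495 CPM in WT. Thus Sptb followed the globins, and the broadly expressed Epb41 and Cd24a did not.

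Heme synthesis genes had 10 of 12 tested members negative, a median of -0.07 and 0 past the threshold; without WT replicate 2, 2 of 12 were negative, and without Sd/Sd replicate 1, 3 of 12. Slc25a37, which encodes the mitochondrial iron importer mitoferrin 1, measured 89.1, 236 and 105 CPM in Sd/Sd and 130, 227 and 133 CPM in WT. Alad, which encodes the enzyme that forms porphobilinogen, measured 119, 189 and 140 CPM in Sd/Sd and 164, 203 and 134 CPM in WT. Slc25a39, a mitochondrial carrier gene, measured 173 to 195 CPM in Sd/Sd and 178 to 194 CPM in WT. Alas2, the erythroid form of the enzyme that starts heme synthesis, is listed at 0 in every library, as are all 2269 identifiers on chromosome X, so Alas2, Gata1 and Xk could not be used.

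Erythroid transcription factors had 8 of 9 tested members negative, a median of -0.08 and 0 past the threshold, and 3 of 9 were negative without WT replicate 2. Ldb1, a cofactor that bridges GATA factor complexes, averaged 302 ± 30.2 CPM in Sd/Sd and 305 ± 12.4 CPM in WT (SD, n = 3 each, as below). Zfpm1, the GATA cofactor FOG1, averaged 66.0 ± 10.2 CPM in Sd/Sd and 71.9 ± 13.0 CPM in WT. Lmo2, a bridging protein gene also used by endothelium, averaged 50.8 ± 13.2 CPM in Sd/Sd and 49.2 ± 3.17 CPM in WT. Lmo2 was lowest in Sd/Sd replicate 2, the library with the most globin. The less abundant Nfe2 and Gfi1b differed 5.7-fold and 11.2-fold between libraries. Both were highest in Sd/Sd replicate 2 and lowest in Sd/Sd replicate 1. Tal1, Lyl1, Cbfa2t3 and Klf3 differed 1.31-fold to 2.39-fold. The 5 iron uptake genes were all negative (median -0.14), and 3 of 5 were without WT replicate 2, Sd/Sd replicate 1 or Sd/Sd replicate 3. Tfrc, the transferrin receptor gene, measured 191 ± 25.4 CPM in Sd/Sd and 216 ± 19.6 CPM in WT. Slc11a2, an iron transporter gene, averaged 51.4 ± 4.74 CPM in Sd/Sd and 53.9 ± 3.84 CPM in WT. Epor, the erythropoietin receptor gene, averaged 12.1 ± 8.24 CPM in Sd/Sd and 12.6 ± 4.39 CPM in WT, and its highest libraries were the replicate 2 ones.

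Red cell enzymes and chaperones had 7 of 9 tested members negative and a median of -0.10, with 1 of 9 negative without WT replicate 2 and 2 of 9 without Sd/Sd replicate 1. Prdx2, a peroxidase gene, averaged 551 ± 72.6 CPM in Sd/Sd and 539 ± 34.1 CPM in WT. Gpx1, glutathione peroxidase, averaged 230 ± 38.5 CPM in Sd/Sd and 247 ± 25.6 CPM in WT. Cat, catalase, averaged 96.2 ± 6.25 CPM in Sd/Sd and 97.5 ± 6.64 CPM in WT. The less abundant Car2, Pklr, Blvrb and Trim10 differed 4.54-fold to 5.51-fold between libraries. Each of them was highest in a replicate 2 library and lowest in Sd/Sd replicate 1. Bpgm differed 1.64-fold and Trim58, at a low level, 3.23-fold. Globin switching genes had 3 of 8 negative (median 0.06). Hmga2 averaged 1016 ± 106 CPM in Sd/Sd and 1024 ± 46.0 CPM in WT. Igf2bp1 averaged 517 ± 53.5 CPM in Sd/Sd and 491 ± 45.9 CPM in WT. Igf2bp3 averaged 310 ± 24.6 CPM in Sd/Sd and 299 ± 20.2 CPM in WT. These genes encode regulators known from fetal tissues, and none of the 3 had the replicate 2 libraries as its highest pair.

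Neighbours of the alpha globin cluster on chromosome 11 were steady while the globins varied. Rhbdf1 measured 56.1 to 63.4 CPM in Sd/Sd and 55.2 to 60.8 CPM in WT. Nprl3, whose introns hold the main alpha globin enhancers, measured 31.4 to 37.7 CPM in Sd/Sd and 26.7 to 34.2 CPM in WT. Snrnp25 measured 31.6 to 36.8 CPM in Sd/Sd and 32.1 to 34.2 CPM in WT. The 4 tested neighbours had positive log2 fold changes with a median of 0.06. Olfr66 and Olfr67, olfactory receptor genes beside the beta cluster, had 0 counts in every library.

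Genes outside the list whose levels followed the 8 tested members most closely were Adra2b, Icam4, Ank1, Sun2 and Acp5. Over the 6 libraries, Pearson's r of a gene's log2 CPM with the average of the members' centred log2 CPM was 0.997 for Adra2b, an adrenergic receptor gene, and 0.995 to 0.996 for the others. These are the highest of 15463 values over 6 points and were not tested. Ank1, the red cell ankyrin gene, measured 11.2, 53.0 and 18.03 CPM in Sd/Sd replicates 1 to 3 and 24.1, 47.5 and 25.5 CPM in WT replicates 1 to 3. Icam4, a red cell adhesion protein gene, differed 5.88-fold between libraries and Acp5, an acid phosphatase gene, 5.72-fold, while Sun2, a nuclear envelope gene, differed 1.46-fold.

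Summed markers of other cell types varied less across the libraries than the sum for primitive red cells, although single genes of low level varied as much or more. The 11 primitive erythroid markers summed to 1737 to 9993 CPM in Sd/Sd and 3640 to 8807 CPM in WT, with 0 of 11 at 0. The 14 endothelial markers, led by Cdh5, Kdr and Tie1, summed to 597 to 823 CPM in Sd/Sd and 710 to 790 CPM in WT. The lowest sums, 597 and 600 CPM, were in Sd/Sd replicates 2 and 1, the libraries with the most and the least globin. All 14 endothelial markers had negative log2 fold changes (median -0.18) and 0 passed. With each library left out in turn, 12 to 14 of the 14 were negative. These markers share the 6 libraries and were not tested as a set. The 11 megakaryocyte and platelet markers summed to 39.3 to 47.3 CPM in Sd/Sd and 30.9 to 45.0 CPM in WT, mostly from Vwf and Itga2b. All 9 tested megakaryocyte markers had positive log2 fold changes (median 0.33) and 0 passed; without Sd/Sd replicate 2, 6 of 9 were negative. Pf4, a platelet chemokine gene, measured 0.461, 3.86 and 1.77 CPM in Sd/Sd replicates 1 to 3. In WT replicates 1 to 3 it measured 2.27, 1.87 and 0.900 CPM. Its highest and lowest libraries were those of the globins, but within WT it was highest in replicate 1 and not in replicate 2. The 13 leukocyte markers, led by Coro1a, summed to 4.63 to 6.26 CPM in Sd/Sd and 5.21 to 5.99 CPM in WT, with Ptprc between 0 and 0.0728 CPM in Sd/Sd and 0 and 0.0758 CPM in WT. Definitive red cell markers, 6 of 8 with a row and led by Sox6, summed to 31.2 to 55.2 CPM in Sd/Sd and 32.0 to 43.4 CPM in WT. Sums of the 9 visceral yolk sac endoderm markers did not overlap, 7.22 to 9.94 CPM in Sd/Sd and 11.2 to 12.1 CPM in WT. They came mostly from Rbp4 and Afp, whose own groups overlapped, and the other markers averaged 1.38 CPM or less. At these low levels Apob, Apoa1 and Cubn were lower in Sd/Sd without overlap and Amn was higher without overlap, while Ttr overlapped. Of the 7 tested genes of this list 6 had a negative log2 fold change (median -0.73), Amn a positive one (1.01), and 0 passed. With each library left out in turn 6 of 7 were also negative. Among all genes tested, 7.68% had groups that did not overlap. The 10 tailbud progenitor markers summed to 694, 408 and 975 CPM in Sd/Sd replicates 1 to 3 and 605, 665 and 846 CPM in WT replicates 1 to 3, with the lowest sum in Sd/Sd replicate 2. The part of these cell types in the globin levels was not tested.

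**Figure D4:**
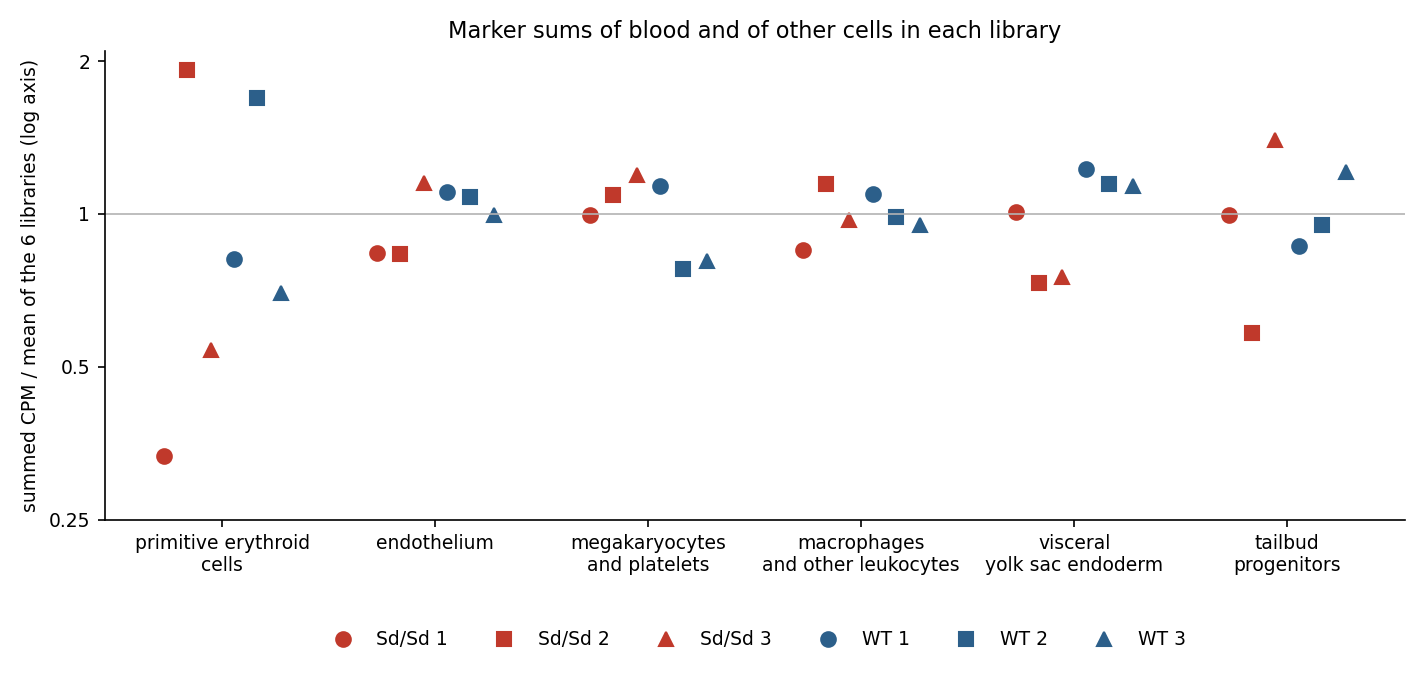
Summed CPM of each marker list divided by its mean over the 6 libraries, on a log axis (red Sd/Sd, blue WT; circle, square and triangle are replicates 1, 2 and 3). The primitive erythroid sums spread 5.75-fold over the libraries, the endothelial sums 1.38-fold and the tailbud progenitor sums 2.39-fold.

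Adult beta-like globins were traces beside the embryonic genes, and among the 4 tested adult and other globin genes 2 had a negative log2 fold change (median 0.08). Hbb-bs, an adult beta globin gene, had 127, 807 and 271 counts in Sd/Sd replicates 1 to 3 and 261, 469 and 228 counts in WT replicates 1 to 3. Hbb-bt, its near-identical neighbour, had 7, 193 and 15 counts in Sd/Sd and 16, 119 and 17 counts in WT. Together they were 0.324%, 0.272% and 0.341% of the beta-like counts in Sd/Sd and 0.205%, 0.207% and 0.275% in WT, with means of 0.312% ± 0.0360 in Sd/Sd and 0.229% ± 0.0397 in WT (SD, n = 3 each) and a small overlap between Sd/Sd replicate 2 and WT replicate 3. Between libraries of the same number the share was higher in Sd/Sd in 3 of 3 pairs, by 0.0833 ± 0.0304 percentage points (SD). The counts of Klf1 per count of Hemgn were also higher in Sd/Sd in 3 of 3 pairs, by 0.0535 ± 0.0287. Of 23 overlapping shares, sums and ratios of these genes, 4 had the same direction in all 3 pairs, 2 higher and 2 lower in Sd/Sd. The 2 lower were the Hbb-y share of the summed globins, by -1.16 ± 1.47 percentage points, and the Hbb-bt share of Hbb-bs and Hbb-bt, by -1.06 ± 0.581. An exact test of 3 pairs cannot give a 2-sided p below 0.25. Among markers of definitive red cells, Car1, a carbonic anhydrase gene, had at most 0.260 CPM in a library.

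The balance of Hbb-bt and Hbb-bs set the replicate 2 libraries apart. Hbb-bt was 5.22%, 19.3% and 5.24% of the counts of this pair in Sd/Sd replicates 1 to 3 and 5.78%, 20.2% and 6.94% in WT replicates 1 to 3. The exact binomial intervals of the replicate 2 libraries (for Sd/Sd 16.9% to 21.9%, for WT 17.1% to 23.7%) lay above those of the other 4 libraries, which reached 10.9% at most. Hbb-bh0, an annotated pseudogene of the beta cluster named after its values were seen, ran the other way, with 5.19, 0.782 and 5.36 CPM in Sd/Sd and 13.9, 1.36 and 15.2 CPM in WT. It was thus lowest in the libraries with the most globin. CD-1 mice are outbred, the counting used the mm9 reference, and how sequence differences between the embryos and that reference affected these copies was not tested.

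**Figure D5:**
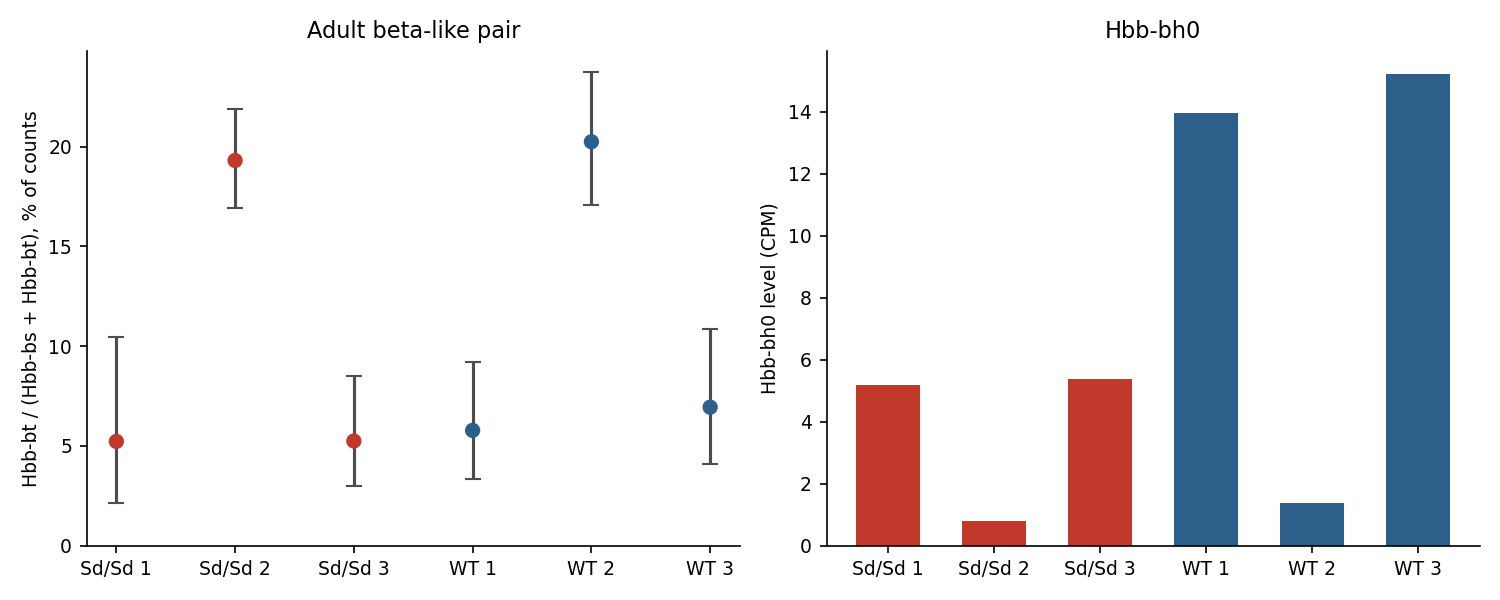
Left, Hbb-bt as percent of the counts of Hbb-bs and Hbb-bt with 95% exact binomial intervals; right, Hbb-bh0 in CPM, both per library (red Sd/Sd, blue WT). The replicate 2 libraries have the highest Hbb-bt share, 19.3% in Sd/Sd and 20.2% in WT, and the lowest Hbb-bh0 level.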

How the data were processed

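The authors deposited raw counts per Ensembl gene, 1 file per library (3 Sd/Sd, 3 WT); the values are whole numbers without normalization. CASAVA, bcl2fastq 2.17.1.14, STAR 2.5.2b, SAMtools, DESeq2 and the genome build mm9 are listed, per the submitters' processing notes. Which program counted the reads, whether it used strand and how it treated reads with several matches were not stated in those notes. GENCODE M21 (GRCm38) named 32620 of 37310 identifiers and gave exon lengths; the counts carry no coordinates.

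Genes were filtered with filterByExpr (minimum count 10, minimum total count 15), leaving 15471. Sd/Sd was compared with WT in edgeR 4.0.16 under R 4.3.3 (TMM, robust dispersions, quasi-likelihood test, 2-sided, Benjamini-Hochberg over all genes, threshold 0.05), tested on simulated data. Alternatives used DESeq2 1.42.0, limma-voom (limma 3.58.1), other filters and scalings, a replicate block and leaving out each library. Shares have 95% exact binomial (Clopper-Pearson) intervals. Sums over the listed genes were given no p; for 3 libraries a group, 0.1 is the smallest p an exact permutation test allows. Replicates were compared by chi-square of their counts, and every pair differed by more than sampling noise.

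The members and lists were chosen with earlier results of these data known. The text names all members, up to the 3 most abundant genes of each list, the 5 genes with the closest pattern, and the leading markers. Other genes (Bcl11a, Trim58, Ptprc, Gata1, Xk, Car1, Hbb-bh0, Olfr66, Olfr67) were named after their values were seen. So were Car2, Pklr, Blvrb, Trim10, Bpgm, Nfe2, Gfi1b, Tal1, Lyl1, Cbfa2t3, Klf3, Apob, Apoa1, Amn and Ttr. Libraries of the same number, given in the labels' titles, deviated together over 15471 genes (r = 0.194, 0.144 and 0.275 for numbers 1, 2 and 3). The numbers were therefore taken to pair the libraries. Sd/Sd replicate 2 and WT replicate 1 also correlated, at 0.182, above the value for number 2. Deviations were taken from the mean of each group, which ties these correlations to each other. They therefore do not settle whether the libraries are paired.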

Additional observations from a re-analysis of the deposited data

How the results depend on the processing

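No listed gene and none of the 67 other erythroid genes passed the threshold under any alternative run, counting the scalings, filters, tools, the replicate block and leaving out each library. With the replicate block the log2 fold changes of the 8 genes lay between -0.58 and -0.46, and this paired fit called 12 genes in all; it changed no call of a listed gene. Over all genes, where the report gives 9 calls, DESeq2 called 34 (19 higher and 15 lower in Sd/Sd), limma-voom 3, no filter 14, dispersions without the robust option 3, and leaving out each library 2 to 6. With the summed globins as a covariate, an alternative added after seeing the data, 6 genes were called, all 6 among the 9.

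The sign of the log2 fold changes depended on which library was left out. Leaving out each library in turn gave -1.28 to 0.32 for Hba-x, -1.40 to 0.29 for Hbb-y, -1.21 to 0.30 for Hbb-bh1, -1.29 to 0.28 for Hba-a1, -1.19 to 0.22 for Klf1, -1.33 to 0.16 for Hemgn, -1.33 to 0.23 for Epb42 and -1.17 to 0.19 for Slc4a1. The same step moved the difference in globin share between -0.331 and 0.0890 percentage points and that in the Hbb-y share between -2.57 and 0.405 percentage points. Depth does not limit the globin shares; 3 libraries a group do.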
